A study of Mus musculus with 19 samples.

Results

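The genes described are 9 transcripts that rise when the extracellular signal-regulated kinase (ERK) is active and that, for the most part, feed back on it: Spry2, Spry4, Spred1, Spred2, Dusp4, Dusp6, Etv4, Etv5 and Phlda1. They were chosen by name, not by a measured value, though earlier results of these data were known. All 9 were found among the 21685 gene symbols of the table. All 9 also passed the filter on low values that left 14988 genes for testing. Their mRNA levels were read by sequencing in embryonic stem cells of the mouse, the cultured counterpart of the early epiblast, which carried or lacked Trim71 and Lin28a. TRIM71 is a ubiquitin ligase that binds RNA, and LIN28A binds precursors of the microRNA let-7 and keeps them from maturing.

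The cells, male and of strain C57BL/6, had 4 genotypes, named here by Trim71 state and then Lin28a state. WT-WT cells were Trimfl/fl and Lin28afl/fl (4 libraries), KO-WT cells were Trim-/- and Lin28afl/fl (4 libraries used), WT-KO cells were Trimfl/fl and Lin28a-/- (5 libraries), and KO-KO cells were Trim-/- and Lin28a-/- (5 libraries). "WT" therefore stands for floxed, conditional cells. All cells were grown in serum with leukaemia inhibitory factor and enriched for the surface antigen SSEA-1 on magnetic columns. Trim71 was deleted by 500 nM 4-hydroxytamoxifen over 2 days, followed by at least 7 days of culture; whether the floxed cells received the solvent is not given in the sources used here. The Lin28a-intact cells were clones 1 and E3 and the Lin28a-null cells were clones 1-4 and C1, so Lin28a genotype and clone cannot be told apart. Clone 1 gave 1 of the 4 KO-WT libraries, replicate 4, and E3 gave the other 3.

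Values are log2 normalised expression as the authors deposited it; differences between harvest days had already been removed, and depth is unknown. Another KO-WT library, the sole library of its day, was left out. After the removal of day differences, each of its values matched the average of the remaining KO-WT libraries to within 1.5e-08. Mean Trim71 expression was 10.21 in WT-WT, 8.89 in KO-WT, 10.65 in WT-KO and 9.28 in KO-KO, and mean Lin28a expression was 10.13, 9.84, 8.47 and 8.28 in the same order. Nothing in the labels says that libraries of a genotype came from separately derived cultures beyond their day and clone, so p-values measure the spread between these libraries. Calls below mean an adjusted p under 0.05 in limma with day in the fit, by the Benjamini-Hochberg method over all 14988 genes. By this test Lin28a was lower on Trim71 loss with Lin28a intact (log2 difference -0.28, adjusted p = 0.036). That call was lost in 8 of 18 fits that left out 1 library. Trim71 was higher on Lin28a loss, by 0.45 (adjusted p = 0.00431) with Trim71 intact and 0.38 (adjusted p = 0.0111) without it.

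ERK is the last kinase of the cascade that runs from growth factor receptors through RAS, RAF and MEK. In mouse embryonic stem cells the cascade is driven largely by FGF4 that the cells secrete, and its activity favours exit from the naive state. The feedback genes act at successive steps of it. Sprouty proteins (SPRY2, SPRY4) act between receptor and RAF, and SPRED1 and SPRED2 bring the RAS inhibitor neurofibromin to the membrane. DUSP6 removes the activating phosphates from ERK in the cytoplasm, and DUSP4 does so in the nucleus, where it also acts on other MAP kinases. ETV4 and ETV5 are ETS transcription factors of the PEA3 group whose transcripts follow FGF signalling, and PHLDA1 is a pleckstrin homology-domain protein whose transcript is widely used as a readout of MEK activity.

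ETS factors are direct partners of ERK on DNA, so the sequence in front of these genes was read first. Promoters were available for 5 of the 9 members in a RefSeq table of build GRCm38.p6 (250 bases before to 50 after the annotated start, 5′ to 3′ on the gene's strand). The 4 shown belong to Spry2 and Dusp6, which were lower in cells without Lin28a, and to Spred2 and Etv5, which were higher there. Capitals mark the ETS core CCGGAA or the PEA3 motif AGGAAG on either strand.
Spry2, chr14:105896770-105897069, minus strand: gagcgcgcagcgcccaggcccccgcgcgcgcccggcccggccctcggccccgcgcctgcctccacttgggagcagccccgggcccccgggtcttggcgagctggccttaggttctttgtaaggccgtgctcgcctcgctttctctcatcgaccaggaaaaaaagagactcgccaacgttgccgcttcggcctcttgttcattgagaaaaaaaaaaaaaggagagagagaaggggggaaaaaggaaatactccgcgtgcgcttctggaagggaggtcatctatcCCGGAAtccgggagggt
Dusp6, chr10:99262981-99263280, plus strand: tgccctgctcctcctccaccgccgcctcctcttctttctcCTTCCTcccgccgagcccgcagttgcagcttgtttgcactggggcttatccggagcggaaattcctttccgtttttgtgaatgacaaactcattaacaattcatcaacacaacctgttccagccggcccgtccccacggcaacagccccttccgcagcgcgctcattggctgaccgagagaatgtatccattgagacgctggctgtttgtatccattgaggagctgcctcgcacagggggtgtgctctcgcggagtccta
Spred2, chr11:19924192-19924491, plus strand: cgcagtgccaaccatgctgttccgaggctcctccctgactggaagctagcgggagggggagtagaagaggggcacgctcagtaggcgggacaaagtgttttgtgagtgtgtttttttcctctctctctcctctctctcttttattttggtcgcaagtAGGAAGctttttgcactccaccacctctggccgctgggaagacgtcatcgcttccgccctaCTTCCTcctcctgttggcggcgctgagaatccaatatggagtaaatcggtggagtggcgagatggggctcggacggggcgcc
Etv5, chr16:22438319-22438618, minus strand: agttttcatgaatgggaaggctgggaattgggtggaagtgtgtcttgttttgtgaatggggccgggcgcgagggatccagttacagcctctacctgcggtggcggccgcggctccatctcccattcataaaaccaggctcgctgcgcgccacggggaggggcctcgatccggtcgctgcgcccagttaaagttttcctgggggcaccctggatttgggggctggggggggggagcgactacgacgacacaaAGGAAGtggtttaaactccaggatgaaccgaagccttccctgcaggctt

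The Spry2 window held 1 CCGGAA, the Dusp6 and Etv5 windows 1 AGGAAG each and the Spred2 window 2. A second Etv5 start and the Spred1 start had neither motif in their windows. Among all 32851 promoters of the table, 14.9% held CCGGAA and 35.4% held AGGAAG, so matches of this kind were common. The other motifs searched were the AP-1 motif TGANTCA (7.81% of promoters), the cyclic AMP response core TGACG (20.8%) and the octamer ATGCAAAT (1.74%). Of these, only TGACG occurred in a member's window, once, in Spred2. A match is a description of letters, not of binding.

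Let-7 is the microRNA through which LIN28A acts on many mRNAs, and it pairs with its targets through the seed, bases 2 to 8, shown in capitals in the RefSeq mature sequences (GRCm38.p6).
mmu-let-7a-5p: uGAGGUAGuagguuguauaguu
mmu-let-7g-5p: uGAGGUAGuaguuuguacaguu

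The complementary site CTACCTC was looked for on the sense strand of annotated 3′ UTRs, taking the longest coding transcript of each gene in GENCODE M21. None of the 9 members held it, although their 3′ UTRs had a median of 1189 bases against 1129 for all tested genes with one. Among 12504 tested genes with a 3′ UTR, 1324 (10.6%) had at least 1 such site. Trim71 itself had 4, Lin28a 2 and Hmga2, a known let-7 target, 4. Absence of the 7 letters says nothing about sites with weaker pairing or in other transcripts.

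All 9 genes were expressed. Per kilobase of transcript, the log2 level in WT-WT was highest for Etv4, at 9.15 (percentile 93.3 of the tested genes), Spry2, at 8.67 (89.9), and Etv5, at 8.55 (88.9). Dusp6 followed at 7.81 (percentile 80.8), Spred2 at 7.63 (78.5), Spred1 at 6.85 (66.0) and Spry4 at 6.81 (65.4). Phlda1, at 5.89 (percentile 49.5), and Dusp4, at 5.46 (42.8), lay near the middle of the tested genes. All other values below are per gene, not per length.

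**Figure D1:**
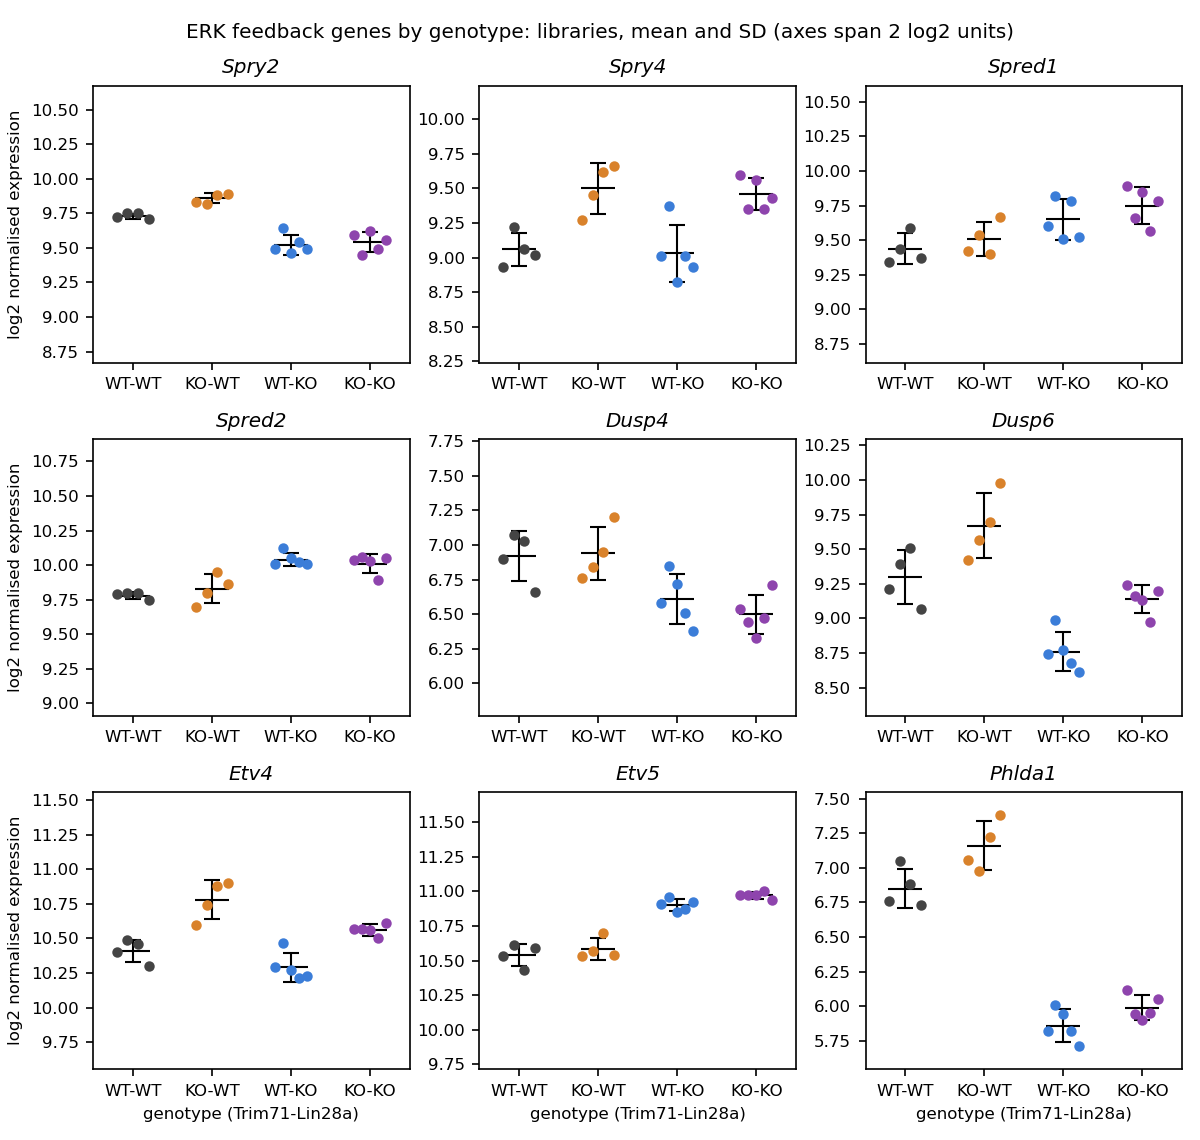
Expression of the 9 ERK feedback genes by genotype. Each point is 1 library on the deposited log2 scale (y axis, every panel spans 2 log2 units), the horizontal line is the genotype mean and the bars are the SD. Phlda1 drops from 6.73 or more in Lin28a-intact libraries to 6.12 or less in Lin28a-null ones, while Spry4 is shifted up in both Trim71-null genotypes.

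The first comparison asked what loss of Trim71 did to these transcripts, once with Lin28a intact and once without it. Spry4 and Etv4 were higher in Trim71-null cells in both backgrounds, Spry4 by 1.36 and 1.35 times and Etv4 by 1.29 and 1.20 times. Dusp6 was higher by 1.30 times in the Lin28a-null background and had a ratio of 1.29, which missed the threshold, in the intact one. The other 6 genes passed in neither. With Lin28a intact, 2 of 9 members were called, both higher; 11.2% of all tested genes were called, 4.74% higher and 6.43% lower. Groups did not overlap for 3 of 9 members (Spry2, Spry4 and Etv4) and for 28.2% of all tested genes. Without Lin28a, 3 of 9 were called, all higher, against 8.38% of all tested genes called, 4.26% higher and 4.12% lower. There 1 of 9 members, Etv4, and 12.6% of all tested genes did not overlap. The median log2 difference of the 9 members was 0.12 and 0.11, against -0.00459 and -0.00927 over all tested genes.

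Spry4, the Sprouty inhibitor, measured 8.93, 9.22, 9.06 and 9.02 in the 4 WT-WT libraries and 9.27, 9.45, 9.62 and 9.66 in KO-WT. Its values were 9.01, 9.37, 8.82, 9.01 and 8.93 in WT-KO and 9.60, 9.35, 9.56, 9.35 and 9.43 in KO-KO. With Lin28a intact the Trim71-null libraries all lay above the intact ones; without Lin28a, the highest intact library, WT-KO replicate 2, lay above the 2 lowest KO-KO libraries. The log2 difference was 0.44 ± 0.116 (SE, adjusted p = 0.026 in limma, higher in 3 of 3 same-day pairs) with Lin28a intact and 0.43 ± 0.0996 (adjusted p = 0.0142, 4 of 5 pairs) without it. Lin28a state left Spry4 without a call: the difference was -0.03 ± 0.108 (adjusted p = 0.843) with Trim71 intact and -0.04 ± 0.108 (adjusted p = 0.777) without it. The order of the means was thus KO-WT (9.50 ± 0.182, SD), KO-KO (9.46 ± 0.117), WT-WT (9.06 ± 0.12) and WT-KO (9.03 ± 0.205), in 2 pairs whose members did not differ beyond their spread.

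Etv4, the PEA3-group transcription factor, measured 10.40, 10.49, 10.46 and 10.30 in WT-WT and 10.60, 10.74, 10.88 and 10.90 in KO-WT. In WT-KO it measured 10.29, 10.47, 10.27, 10.21 and 10.23, and in KO-KO 10.57, 10.57, 10.56, 10.50 and 10.61. No Trim71-null library overlapped the Trim71-intact ones of the same Lin28a state. Etv4 was higher by 0.37 ± 0.074 with Lin28a intact (adjusted p = 0.00723, 3 of 3 pairs) and by 0.27 ± 0.0633 without it (adjusted p = 0.0158, 5 of 5 pairs). Its order was KO-WT (10.78 ± 0.141), KO-KO (10.56 ± 0.0407), WT-WT (10.41 ± 0.0815) and WT-KO (10.29 ± 0.105). KO-KO against WT-WT did not pass (0.15 ± 0.0685, adjusted p = 0.0872), nor did WT-KO against WT-WT (-0.12 ± 0.0685, adjusted p = 0.172).

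Dusp6, the cytoplasmic ERK phosphatase, measured 9.21, 9.39, 9.51 and 9.07 in WT-WT and 9.42, 9.57, 9.70 and 9.98 in KO-WT. It measured 8.74, 8.99, 8.77, 8.68 and 8.61 in WT-KO and 9.24, 9.16, 9.13, 8.97 and 9.20 in KO-KO. KO-WT overlapped WT-WT through its lowest library, and KO-KO overlapped WT-KO only through the highest WT-KO and the lowest KO-KO library. The difference on Trim71 loss was 0.37 ± 0.122 with Lin28a intact, which missed the threshold (adjusted p = 0.0593, 3 of 3 pairs), and 0.38 ± 0.104 without Lin28a (adjusted p = 0.0325, 5 of 5 pairs). The interaction, which tests whether these 2 differences differ, was 0.01 ± 0.16 (adjusted p = 0.98). Dusp6 fell into the order KO-WT (9.67 ± 0.236), WT-WT (9.30 ± 0.194), KO-KO (9.14 ± 0.104) and WT-KO (8.76 ± 0.142); WT-WT and KO-KO did not differ beyond their spread (-0.15 ± 0.113, adjusted p = 0.28), and KO-WT against WT-WT missed the threshold as given.

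Of the genes without a call on Trim71 loss, Phlda1 (0.31 ± 0.106, adjusted p = 0.0689) and Spry2 (0.12 ± 0.052, adjusted p = 0.127) came closest, both with Lin28a intact. Without Lin28a their differences were 0.13 (adjusted p = 0.431) and 0.02 (adjusted p = 0.823). Spred1, Spred2, Dusp4 and Etv5 had differences between -0.11 and 0.11 in the 2 backgrounds, with adjusted p-values from 0.393 to 0.938. The interaction was not called for any of the 9 members in limma, and none had an unadjusted p under 0.05, where 2256 of all tested genes did; over all genes the interaction called 3 (0.02%). Its values ran from -0.18 for Phlda1 to 0.03 for Spred1.

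The Trim71 calls depended on which libraries entered. In clones E3 and C1 alone none of the 9 was called in either background (Spry4 0.30, adjusted p = 0.346, Dusp6 0.10, adjusted p = 0.698, and Etv4 0.26, adjusted p = 0.219, with Lin28a intact; Spry4 0.35, adjusted p = 0.291, Dusp6 0.27, adjusted p = 0.262, and Etv4 0.23, adjusted p = 0.299, without it). There limma gave 1 and 4 of 9 members an unadjusted p under 0.05, as it did 2609 and 1864 of the 14988 tested genes. It called 10 and 153 of all tested genes. In clones 1 and 1-4 alone the values were higher (Spry4 0.72 and 0.55, Dusp6 0.89 and 0.55, Etv4 0.57 and 0.33), but those for Lin28a-intact cells rest on 1 KO-WT library. With only the 2 genotypes compared in the fit, Spry4 (0.48, adjusted p = 0.0941) and Etv4 (0.43, adjusted p = 0.0819) lost their calls with Lin28a intact. In that fit 3 of 9 members and 3231 of the 14988 tested genes had an unadjusted p under 0.05. It called 30 of all tested genes. Spry4 with Lin28a intact was also no longer called when WT-WT replicate 1 (adjusted p = 0.0528), 3 (0.0687) or 4 (0.0793) or KO-WT replicate 3 (0.0982) or 4 (0.0797) was left out, whereas Etv4 kept it in all 18 fits that left out 1 library. In Lin28a-null cells Spry4 lost its call without KO-KO replicate 1 (adjusted p = 0.0606), and Etv4 without WT-KO replicate 4 (0.0571) or 5 (0.0526). Dusp6 lost it there without WT-KO replicate 1 (adjusted p = 0.079), 3 (0.0511), 4 (0.09) or 5 (0.104), or KO-KO replicate 1 (0.11), 2 (0.0869), 3 (0.0641) or 5 (0.0767), on the 3 days with all 4 genotypes alone (0.134), and with eBayes without trend (0.0512) or robust (0.0543). With Lin28a intact, Dusp6 gained a call without WT-KO replicate 2 (adjusted p = 0.0329), KO-WT replicate 1 (0.0254) or WT-WT replicate 3 (0.0452), and with equal medians (0.0471), equal 75th percentiles (0.043) or quantile normalisation (0.0377). Phlda1 gained one without WT-KO replicate 2 (adjusted p = 0.0492), KO-WT replicate 2 (0.0484) or WT-WT replicate 2 (0.0411), and Spry2 without WT-KO replicate 2 (0.0499), with quantile normalisation (0.0434) or with a GC and length trend removed (0.0449). Spred1 gained a call with that trend removed (0.27, adjusted p = 0.01) and in clones 1 and 1-4 alone (0.34, adjusted p = 0.0448, with Lin28a intact and 0.27, adjusted p = 0.0443, without it), where Phlda1 with Lin28a intact was also called (0.67, adjusted p = 0.0319). The fit without the day block called 5 members with Lin28a intact, adding Spry2 (adjusted p = 0.0312), Dusp6 (0.0138) and Phlda1 (0.0141). That fit called 4219 of all tested genes, where the main fit called 1674.

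**Figure D2:**
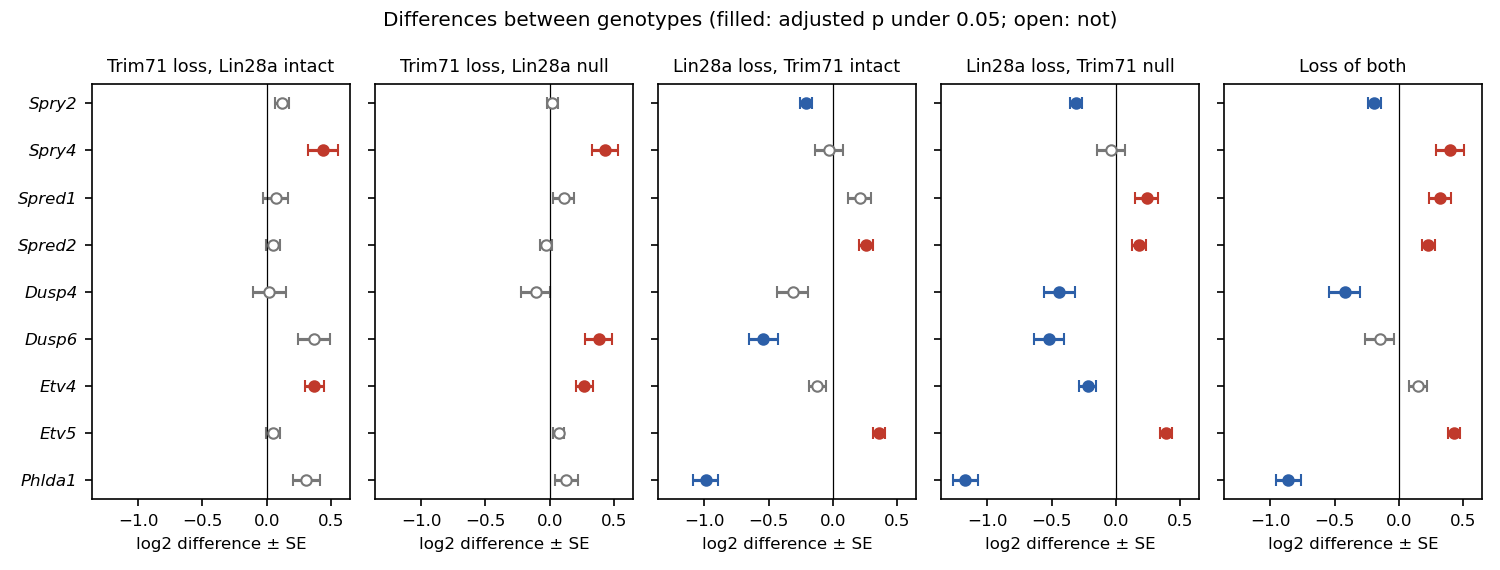
Log2 differences of the 9 genes (x axis, with SE bars) in 5 comparisons of genotypes, 1 panel each. Filled points passed an adjusted p of 0.05 (red higher, blue lower) and open points did not. Spry4, Dusp6 and Etv4 lie to the right on Trim71 loss; Phlda1 lies farthest left on Lin28a loss, at -0.99 and -1.17, and Etv5 to the right, at 0.36 and 0.39.

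The second comparison asked what differed between Lin28a-null and Lin28a-intact cells. The members went in both directions. Phlda1 fell by 0.99 on the log2 scale with Trim71 intact and by 1.17 without it, Dusp6 and Spry2 were lower in both Trim71 states, and Etv5 and Spred2 were higher in both. Among close relatives, Etv5 was higher while Etv4 had differences of -0.12 and -0.22, whereas Spred1 and Spred2 both had positive differences (0.18 to 0.26) and Dusp4 and Dusp6 both negative ones (-0.31 to -0.54), not all of them called. With Trim71 intact, 5 of 9 members were called, 2 higher and 3 lower; among all tested genes 42.4% were called, 20.3% higher and 22.0% lower. Without Trim71, 8 of 9 were called, 3 higher and 5 lower, against 42.8% of all tested genes (20.8% higher, 22.0% lower). In each Trim71 state 5 of 9 members had libraries that did not overlap between Lin28a states, as did 40.8% and 40.7% of all tested genes. The median difference of the members was -0.12 with Trim71 intact and -0.22 without it, against -0.00774 and -0.000818 over all tested genes.

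Phlda1, the MEK readout transcript, measured 6.76, 7.05, 6.88 and 6.73 in WT-WT and 7.06, 6.98, 7.22 and 7.38 in KO-WT. It measured 5.82, 6.01, 5.94, 5.82 and 5.71 in WT-KO and 6.12, 5.94, 5.90, 5.95 and 6.05 in KO-KO. Every Lin28a-null library lay below every Lin28a-intact one. The ratio was 0.50 with Trim71 intact (-0.99 ± 0.0979, adjusted p = 9.41e-07, 4 of 4 pairs) and 0.44 without Trim71 (-1.17 ± 0.0979, adjusted p = 1.54e-07, 4 of 4 pairs). Means were 7.16 ± 0.175 in KO-WT, 6.85 ± 0.144 in WT-WT, 5.99 ± 0.0919 in KO-KO and 5.86 ± 0.117 in WT-KO, and neighbours within a Lin28a state did not pass the test.

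Dusp6 fell by 0.54 on the log2 scale with Trim71 intact (SE 0.113, adjusted p = 0.00124) and by 0.52 without Trim71 (SE 0.113, adjusted p = 0.00145), lower in 4 of 4 pairs each time. From the library values given above, no Lin28a-null library of either Trim71 state reached the lowest intact library of that state. Dusp4, the nuclear phosphatase, ran from 6.66 to 7.07 in WT-WT, 6.76 to 7.20 in KO-WT, 6.38 to 6.85 in WT-KO and 6.33 to 6.71 in KO-KO. It missed the threshold with Trim71 intact (-0.31 ± 0.12, adjusted p = 0.0509) and was lower without Trim71 (-0.44 ± 0.12, adjusted p = 0.00785), where the libraries did not overlap. Dusp4 means were 6.94 ± 0.193 in KO-WT, 6.92 ± 0.183 in WT-WT, 6.61 ± 0.18 in WT-KO and 6.50 ± 0.141 in KO-KO. Both phosphatases were thus lower without Lin28a in Trim71-null cells.

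Spry2, the other Sprouty, measured 9.72, 9.75, 9.75 and 9.71 in WT-WT and 9.83, 9.82, 9.88 and 9.89 in KO-WT. It measured 9.49, 9.64, 9.46, 9.54 and 9.49 in WT-KO and 9.59, 9.45, 9.62, 9.49 and 9.56 in KO-KO. All 10 Lin28a-null libraries were below all 8 intact ones. Spry2 fell by 0.21 with Trim71 intact (SE 0.0481, adjusted p = 0.00235, 4 of 4 pairs) and by 0.31 without Trim71 (SE 0.0481, adjusted p = 8.82e-05, 4 of 4 pairs). Its means were 9.86 ± 0.0338 in KO-WT, 9.73 ± 0.018 in WT-WT, 9.54 ± 0.0724 in KO-KO and 9.52 ± 0.0693 in WT-KO, with no call between neighbours of the same Lin28a state. Etv4 was lower only in the Trim71-null comparison by the test (-0.22 ± 0.0685, adjusted p = 0.0163); the difference between its 2 Lin28a effects, the interaction, was -0.10 ± 0.0974 (adjusted p = 0.636).

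Etv5, the second PEA3-group factor, measured 10.53, 10.61, 10.43 and 10.59 in WT-WT and 10.53, 10.57, 10.70 and 10.54 in KO-WT. It measured 10.91, 10.96, 10.85, 10.87 and 10.92 in WT-KO and 10.97, 10.97, 10.97, 11.00 and 10.94 in KO-KO. Every Lin28a-null library was above every intact one. The ratio was 1.29 with Trim71 intact (0.36 ± 0.0484, adjusted p = 2.10e-05) and 1.31 without it (0.39 ± 0.0484, adjusted p = 1.12e-05), in 4 of 4 pairs each. Trim71 loss changed Etv5 by 0.05 ± 0.0523 (adjusted p = 0.598) and 0.07 ± 0.0448 (adjusted p = 0.393), so its order was the 2 Lin28a-null genotypes (10.97 ± 0.0231 in KO-KO, 10.90 ± 0.0434 in WT-KO) above the 2 intact ones (10.58 ± 0.0794 in KO-WT, 10.54 ± 0.0829 in WT-WT).

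Of the SPRED genes, Spred2 was higher without Lin28a in both Trim71 states and Spred1 only without Trim71 by the test; their interactions were not called (-0.08 and 0.03). Spred2 measured 9.79, 9.80, 9.80 and 9.75 in WT-WT, 9.70, 9.80, 9.95 and 9.86 in KO-WT, 10.01, 10.12, 10.05, 10.02 and 10.01 in WT-KO, and 10.04, 10.06, 10.03, 9.89 and 10.05 in KO-KO. With Trim71 intact the groups did not overlap (0.26 ± 0.0526, adjusted p = 0.000898, 4 of 4 pairs); without Trim71 they did, through KO-KO replicate 4 (0.18 ± 0.0526, adjusted p = 0.0105, 3 of 4 pairs). Spred1 ran from 9.34 to 9.59 in WT-WT, 9.40 to 9.67 in KO-WT, 9.51 to 9.82 in WT-KO and 9.57 to 9.89 in KO-KO. Its difference was 0.21 ± 0.0887 with Trim71 intact (adjusted p = 0.0663) and 0.24 ± 0.0887 without it (adjusted p = 0.035), with overlap both times. Means of Spred2 were 10.04 ± 0.0453 in WT-KO, 10.01 ± 0.0679 in KO-KO, 9.83 ± 0.105 in KO-WT and 9.78 ± 0.0243 in WT-WT. Those of Spred1 were 9.75 ± 0.132 in KO-KO, 9.65 ± 0.145 in WT-KO, 9.51 ± 0.124 in KO-WT and 9.44 ± 0.112 in WT-WT. In both genes neighbours of the same Lin28a state did not differ beyond their spread.

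Dusp6, Etv5 and Phlda1 kept their Lin28a calls in both Trim71 states under all 32 alternatives run. In clones E3 and C1 alone, some calls were lost at differences like those above: Spry2 (-0.20, adjusted p = 0.116) and Spred2 (0.26, adjusted p = 0.0705) with Trim71 intact, and Spred1 (0.24, adjusted p = 0.0991), Spred2 (0.17, adjusted p = 0.127) and Etv4 (-0.20, adjusted p = 0.116) without Trim71. In clones 1 and 1-4 alone, Spred1 (0.14, adjusted p = 0.207) and Spred2 (0.18, adjusted p = 0.0791) lost theirs without Trim71. With a trend on GC content and length removed, Spry2 fell by 0.10 and lost its call with Trim71 intact (adjusted p = 0.0968), and Etv4 lost its call without Trim71 (-0.14, adjusted p = 0.0956), while Spred1 (0.33, adjusted p = 8.32e-05) and Dusp4 (-0.32, adjusted p = 0.0328) gained calls with Trim71 intact. Spred1 with Trim71 intact was also called with equal medians (adjusted p = 0.0265), equal 75th percentiles (0.0316) or quantile normalisation (0.0426) and in clones 1 and 1-4 alone (0.0198). With only the genotypes compared, Spred1 (adjusted p = 0.00897), Dusp4 (0.0012) and Etv4 (-0.16, adjusted p = 0.00856) were called with Trim71 intact, and without the day block Spred1 (0.0279) and Dusp4 (0.0188) were. Without Trim71, Spred1 lost its call when any of 7 libraries was left out: KO-WT replicate 1 (adjusted p = 0.127), 2 (0.0586) or 3 (0.121), KO-KO replicate 1 (0.0722), 3 (0.1) or 5 (0.0734), or WT-KO replicate 1 (0.0503). On the 3 days with all 4 genotypes alone, Spred1 (adjusted p = 0.172) and Spred2 (0.158) lost their calls without Trim71, and Spred1 did so with eBayes without trend (0.0517). Spred2 lost its call there without KO-WT replicate 1 (adjusted p = 0.0651), and Etv4 without KO-WT replicate 3 (0.0689) or 4 (0.0813). With Trim71 intact, Dusp4 gained a call without KO-WT replicate 1 (adjusted p = 0.0351) or 4 (0.0278), KO-KO replicate 5 (0.0408), WT-KO replicate 2 (0.0187) or 3 (0.047), or WT-WT replicate 4 (0.0141). Spred1 gained one without KO-KO replicate 4 (adjusted p = 0.0447), WT-KO replicate 3 (0.0355) or 5 (0.045), or WT-WT replicate 3 (0.026), and Etv4 without WT-KO replicate 2 (0.0334) or KO-WT replicate 1 (0.0466).

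Markers of other cell types moved with Lin28a state. Among all tested genes 22.0% were called lower on Lin28a loss in each Trim71 state. Called higher were 20.3% with Trim71 intact and 20.8% without it. The summed level of 11 trophectoderm markers was 4632 to 6128 units in WT-WT, 4639 to 5643 in KO-WT, 1147 to 1383 in WT-KO and 1017 to 1274 in KO-KO; 7 of 9 tested were lower in each Trim71 state, Krt8 by -4.22 with Trim71 intact. The 11 primitive endoderm markers summed to 11173 to 12327 units in WT-WT, 11818 to 13985 in KO-WT, 5268 to 6474 in WT-KO and 6004 to 7154 in KO-KO. Of 9 tested, 9 were lower with Trim71 intact and 7 without it, with Dab2 at -2.78 and -2.79. Such sums weigh abundant genes most. Sparc had the highest WT-WT mean of this list (12.60, against 11.50 in WT-KO). The 8 mesenchyme markers in the table summed to 1091 to 1328, 1028 to 1191, 547 to 660 and 554 to 655 units in the same order, with 5 of 7 tested lower in each Trim71 state. Stem cell markers were higher (6 of 8 tested with Trim71 intact and 4 without it), at 37237 to 39095, 39450 to 42857, 46289 to 52381 and 50317 to 53292 units. Fut4, a fucosyltransferase gene on that list that did not pass the filter, had low means of 2.88 to 3.27. Elf5 (means 0.80 to 0.95) and Foxa2 (1.08 to 1.91) were the lowest genes of the trophectoderm and primitive endoderm lists. Both lay near the low end of the log2 values of the table, whose lowest was -0.71, and did not pass the filter for testing. Cdx2 (2.86 in WT-WT) and Sox17 (3.01) did not pass it either. Other transcription factors of these lists had higher WT-WT means than these low genes, among them Hand1 (6.64), Gata3 (5.60), Gata4 (6.44) and Gata6 (4.67). In bulk samples fewer cells of a type and less RNA per cell cannot be told apart, and the part of these cells in the Lin28a results was not tested. Trim71 loss with Lin28a intact gave calls in 4.74% of all tested genes for higher and 6.43% for lower levels. Without Lin28a these shares were 4.26% and 4.12%. An unadjusted p under 0.05 in limma was found for 4376 and 3413 of the 14988 tested genes. On Trim71 loss limma called 0 of 9 trophectoderm markers with Lin28a intact (1 with an unadjusted p under 0.05) and 1 lower without it, and 1 and 2 of 9 primitive endoderm markers were higher, Lama1 by 0.40 and 0.48. Of the stem cell markers 1 and 2 of 8 were higher, Klf4 by 0.46 and 0.38, and of the mesenchyme markers 1 of 7 was lower with Lin28a intact, Acta2 by -0.57, and 0 without it (1 with an unadjusted p under 0.05). The part of these cells in the Trim71 results was not tested either.

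With both genes lost, the members showed the 2 patterns side by side. Compared with WT-WT, KO-KO cells had more Etv5, Spry4, Spred1 and Spred2 and less Phlda1, Dusp4 and Spry2, so 7 of 9 were called, 4 higher and 3 lower; among all tested genes 45.6% were called, 21.0% higher and 24.6% lower. Groups did not overlap for 6 of 9 members and for 44.5% of all tested genes. Etv5 was higher by 0.43 ± 0.0484 (adjusted p = 3.23e-06), Spry4 by 0.40 ± 0.108 (adjusted p = 0.00655), Spred1 by 0.32 ± 0.0887 (adjusted p = 0.00863) and Spred2 by 0.23 ± 0.0526 (adjusted p = 0.00209). Phlda1 fell by 0.86 (SE 0.0979, adjusted p = 3.64e-06), Dusp4 by 0.42 (SE 0.12, adjusted p = 0.0099) and Spry2 by 0.19 (SE 0.0481, adjusted p = 0.00473). Dusp6, which had positive differences on Trim71 loss and negative ones on Lin28a loss, and Etv4 were the 2 members without a call here. These comparisons share the WT-WT libraries with the single losses. In clones E3 and C1 alone, Spry4 (0.27, adjusted p = 0.243), Spred1 (0.17, adjusted p = 0.324), Spred2 (0.20, adjusted p = 0.152) and Spry2 (-0.23, adjusted p = 0.0759) lost their calls and Dusp6 was lower (-0.38, adjusted p = 0.0381). In clones 1 and 1-4 alone, Dusp4 (-0.16, adjusted p = 0.324) and Spry2 (-0.14, adjusted p = 0.0524) lost theirs and Etv4 gained one (0.24, adjusted p = 0.00609), and Etv4 also gained one without WT-KO replicate 2 (0.0215). On the 3 days with all 4 genotypes alone Dusp4 (-0.42, adjusted p = 0.05) and Spred1 (0.27, adjusted p = 0.0684) lost theirs, as Spry2 did with a GC and length trend removed (-0.06, adjusted p = 0.314).

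The single mutants were compared directly to order the genotypes, a comparison added after the other 6 had been set. KO-WT against WT-KO called 8 of 9 members, 6 higher and 2 lower, against 46.1% of all tested genes (22.5% higher, 23.6% lower); 6 of 9 members and 42.6% of all tested genes did not overlap. Phlda1 was 2.46 times higher (1.30 ± 0.0979, adjusted p = 3.03e-08) and Dusp6 1.88 times higher (0.91 ± 0.113, adjusted p = 8.03e-06) in the Trim71-null cells. Etv4 (0.49), Spry4 (0.47), Spry2 (0.33) and Dusp4 (0.33) were also higher there, and Etv5 (-0.32) and Spred2 (-0.21) lower. Spred1 was not called (-0.14 ± 0.0887, adjusted p = 0.213).

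The rest of the pathway was read from 5 lists of 90 genes, of which 84 were tested. In the 4 comparisons of single losses the median difference of the first 4 lists lay between -0.15 and 0.15. Among all tested genes 11.2% were called on Trim71 loss with Lin28a intact and 8.38% without it. On Lin28a loss 42.4% of them were called with Trim71 intact and 42.8% without it. Shares of each list below are to be read beside these, and the lists are small. Among receptors and ligands, 13 of 16 were tested. On Trim71 loss 2 were higher and 2 lower with Lin28a intact, and 3 higher and 1 lower without it (30.8% called each time). Fgfr2, an FGF receptor, was lower in both backgrounds (-0.40 ± 0.0725, adjusted p = 0.0043, and -0.31 ± 0.0621, adjusted p = 0.00552). Fgf4, the main ERK-activating ligand of these cells, was higher by 0.20 ± 0.0474 without Lin28a (adjusted p = 0.017). Its means were 11.25 ± 0.0583 (SD) in WT-WT, 11.41 ± 0.0547 in KO-WT, 11.49 ± 0.0879 in WT-KO and 11.68 ± 0.0482 in KO-KO. On Lin28a loss 5 were higher and 4 lower in each Trim71 state (69.2% called). The FGF family ligand Fgf17 was higher (1.07 ± 0.107, adjusted p = 1.06e-06, and 0.85 ± 0.107, adjusted p = 1.20e-05), as was the receptor Kit (0.60 and 0.85). The epidermal growth factor receptor Egfr was lower (-1.60 ± 0.127, adjusted p = 8.99e-08, and -1.23 ± 0.127, adjusted p = 1.56e-06). Fgfr2 was lower on Lin28a loss as well (-0.76 ± 0.0671, adjusted p = 2.74e-07, and -0.67 ± 0.0671, adjusted p = 1.01e-06).

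All 27 adaptors and kinases were tested. On Trim71 loss 3 were higher and 4 lower with Lin28a intact (25.9% called), and 3 higher and 1 lower without it (14.8%). On Lin28a loss 6 were higher and 7 lower with Trim71 intact (48.1%), and 7 and 7 without it (51.9%). The Lin28a shares were near the 42.4% and 42.8% of all tested genes. Mras, a RAS-family GTPase that helps activate RAF, was higher in all 5 comparisons of a loss: by 0.63 ± 0.0856 and 0.73 ± 0.0733 on Trim71 loss, by 0.63 ± 0.0792 and 0.73 ± 0.0792 on Lin28a loss, and by 1.36 ± 0.0792 with both lost (adjusted p = 2.25e-09). Its genotype means rose from 5.92 ± 0.0661 in WT-WT through 6.55 ± 0.0702 in KO-WT and 6.56 ± 0.112 in WT-KO to 7.29 ± 0.116 in KO-KO. Ksr1, a scaffold of the RAF-MEK-ERK module, was lower on Trim71 loss in both backgrounds (-0.35 ± 0.0654, adjusted p = 0.00546, and -0.39 ± 0.056, adjusted p = 0.000531).

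Of 21 other inhibitors, 19 were tested. On Trim71 loss 2 were higher and 2 lower with Lin28a intact, and 4 higher and 0 lower without it (21.1% called each time). The phosphatase Dusp1 was called higher in both backgrounds (0.35 ± 0.0579, adjusted p = 0.00265, with Lin28a intact and 0.18 without it), and the phosphatase Dusp14 led without Lin28a (0.45 ± 0.0752, adjusted p = 0.00151). On Lin28a loss 3 were higher and 8 lower with Trim71 intact (57.9% called), and 5 higher and 8 lower without it (68.4%). The ERK phosphatase Dusp9 was lower in both states (-0.93 ± 0.121, adjusted p = 1.66e-05, and -0.92 ± 0.121, adjusted p = 1.93e-05). Errfi1, an inhibitor of the epidermal growth factor receptor, was lower with Trim71 intact (-0.87 ± 0.0605, adjusted p = 1.70e-08) and also called lower without it (-0.715).

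Among the 9 remaining ETS factors and their counterpart repressor Cic, none of the 10 genes was called by limma on Trim71 loss in either background. In that test 3 and 2 of them had an unadjusted p under 0.05, as did 4376 and 3413 of the 14988 tested genes. On Lin28a loss 2 were higher and 3 lower with Trim71 intact, and 3 and 3 without it; Elk3, an ETS factor of the ternary complex group, was at -0.80 ± 0.102 (adjusted p = 1.34e-05) and -0.82 ± 0.102 (adjusted p = 1.12e-05). Of 16 other ERK-induced transcripts, 15 were tested. On Trim71 loss 4 were higher and 0 lower with Lin28a intact (26.7% called, median 0.18), and 2 higher and 0 lower without it (13.3%, median 0.13). Epha2, an ephrin receptor, led both (0.58 ± 0.0995, adjusted p = 0.0029, and 0.56 ± 0.0852, adjusted p = 0.000867). On Lin28a loss 3 were higher and 8 lower with Trim71 intact, and 2 higher and 10 lower without it, with a median of -0.37 each time. The ephrin receptor Epha4 (-1.27 and -1.02) and the AP-1 gene Jun (-0.67 and -0.84) were lower, whereas the immediate early gene Egr1 was higher (1.41 ± 0.13 and 1.34 ± 0.13). The transcripts of the pathway thus did not move in 1 direction without Lin28a. None of the 84 tested pathway genes had a called interaction in limma, and 16 had an unadjusted p under 0.05, as did 2256 of the 14988 tested genes.

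**Figure D3:**
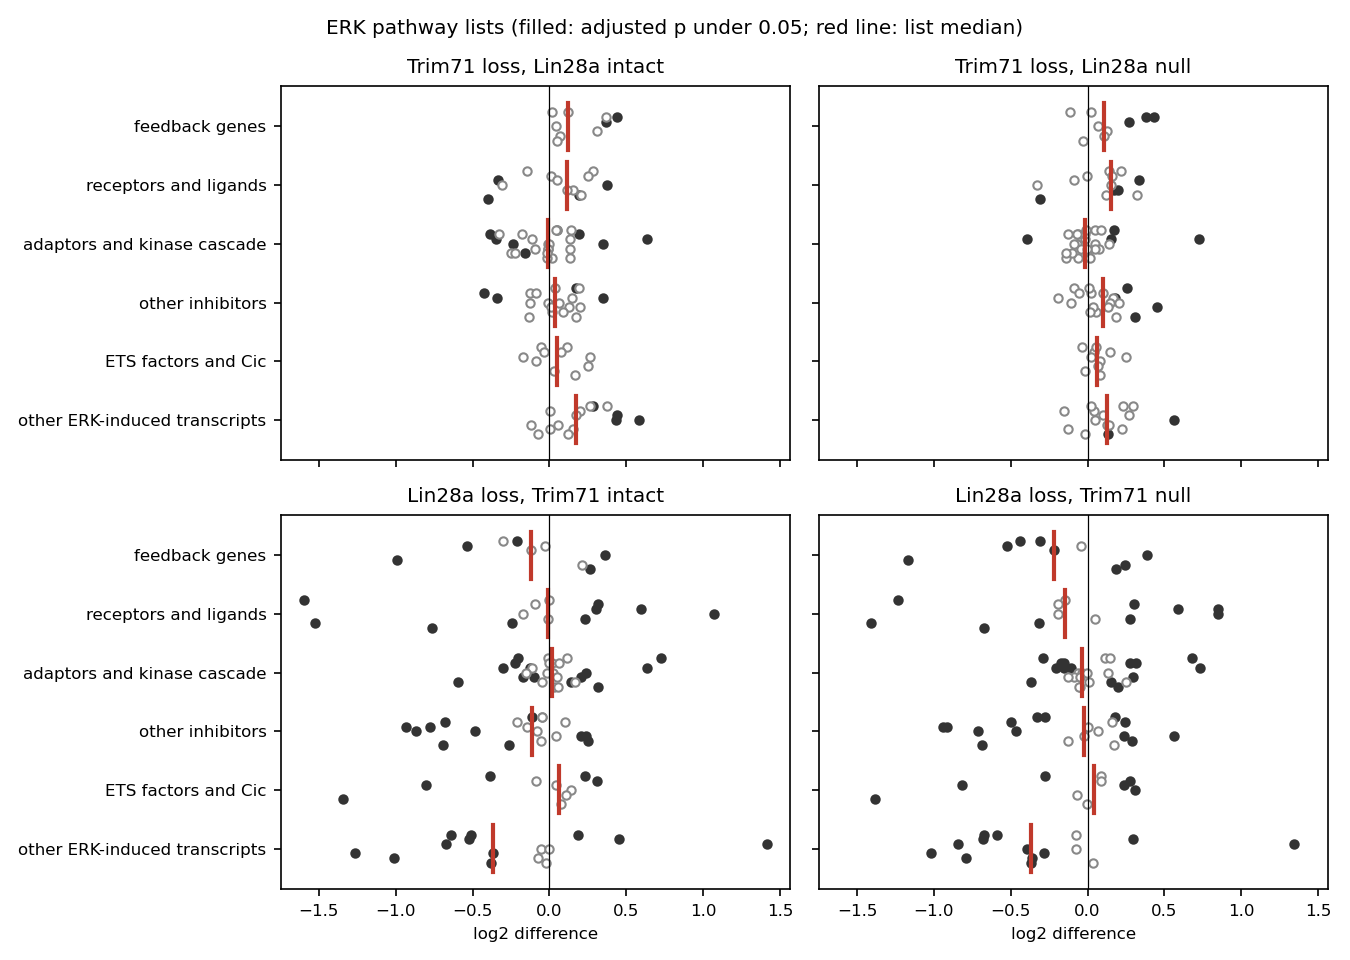
Log2 differences (x axis) of the 9 feedback genes and of 5 pathway lists in 4 comparisons, 1 panel each. Each point is 1 tested gene, filled where its adjusted p was under 0.05, and the red line is the median of the list. On Lin28a loss the other ERK-induced transcripts have a median of -0.37, and the feedback genes spread to both sides of 0.

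Libraries of 1 genotype also differed among themselves, and several members did so together. After genotype and day means were removed, 33 of the 36 pairs of members had a correlation above 0 over the 18 libraries, with a median of 0.53. The highest were Dusp6 with Etv4 (0.89), Dusp4 with Phlda1 (0.87) and Dusp4 with Dusp6 (0.86), and 7 pairs reached 0.8 or more. The lowest was Spred1 with Etv5 (-0.30). For comparison, the median correlation of a member with all tested genes lay between -0.063 and 0.013, and between 0.247% (Phlda1) and 3.83% (Spred1) of tested genes reached 0.8 with a member. These correlations are a description with no test: their points share the library, and the day step leaves 10 residual degrees of freedom.

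**Figure D4:**
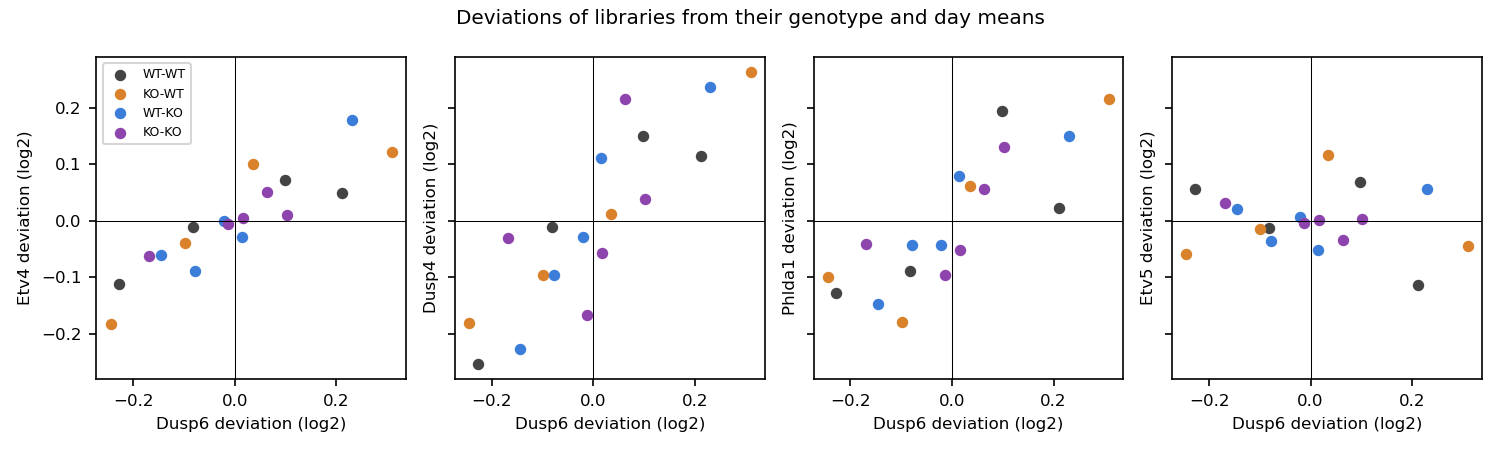
Deviation of each of 18 libraries from its genotype and day mean for Dusp6 (x axis, log2) against Etv4, Dusp4, Phlda1 and Etv5 (y axes, log2), coloured by genotype. The first 3 panels rise together, with correlations of 0.89 for Etv4, 0.86 for Dusp4 and 0.82 for Phlda1, and the Etv5 panel does not.

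Across the 18 libraries, genotype differences included, the tested genes with the most similar pattern to each member were found by Pearson correlation. For Phlda1 they were Foxq1 (0.994) and Pard6b (0.99), and for Etv5 Nat10 (0.986) and Smarca4 (0.983). Spry2 was closest to Gm28592 (0.968) and Myd88 (0.966), and Spred2 to Gm15243 (0.968) and Atxn2l (0.963). The nearest to Dusp6 were Nppb (0.962) and Kifc3 (0.96), and to Spry4 Epha2 (0.953) and Epas1 (0.94). Etv4 was followed by Gm17080 (0.953) and Esam (0.95), Spred1 by Cd247 (0.937) and Bnc2 (0.925), and Dusp4 by Gm26810 (0.936) and Gm29202 (0.9). Spry4 and Epha2 thus shared their pattern, a rise on Trim71 loss in both backgrounds.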

How the data were processed

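mRNA of sorted mouse embryonic stem cells was sequenced as paired ends on a HiSeq1500, per the labels' protocols. The submitters' processing notes name CASAVA 1.8, STAR and DESeq2; the transformation, the removal of day effects, the annotation and the genome build are not given in the sources used here. The table the authors deposited holds another kind of value than its name implies: normalised expression on a log scale, taken as log2 from the size of the values (-0.71 to 16.30), summing after raising 2 to each value to 7297919 to 7677445 units per library. These sums are not depths, so no counting interval is given. Fitted day terms were at most 1.7e-08, so day effects had been removed before deposit. Day, a label that pairs the libraries, was kept as a block to count its degrees of freedom; for the same reason no correlation can check the pairing.

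Genes with at least log2 of 10 in at least 4 of 18 libraries were tested (14988 of 21685, 69.1%) in limma 3.58.1 (R 4.3.3; genotype means plus day, eBayes with trend, 10 residual degrees of freedom), two-sided. The procedure was tested on simulated data. The 9 members, the pathway and marker lists and the tests were chosen with earlier results of these data known. Besides the members, the text names the 2 genes most correlated with each member and some of the markers with the largest difference. From each pathway list, in each comparison, up to 2 higher and 2 lower called genes were selected. These had the largest difference and a mean of at least log2 of 50. Only some of them are given. Left out on Trim71 loss with Lin28a intact were, among others, Rasa1 (-0.43), Rps6ka3 (-0.39), Fgf17 (0.37), Rasa2 (-0.34) and Kit (-0.34). Rps6ka2 (0.73 and 0.68 on Lin28a loss) and Erbb3 (0.34 on Trim71 loss without Lin28a) were left out as well. Fut4, Elf5, Foxa2, Cdx2, Sox17, Hand1, Gata3, Gata4, Gata6, Sparc and Hmga2 were named after their values were seen. Alternatives covered the day block, scaling, eBayes settings, filters, clones, days, a GC and length trend (known for 98.2% of tested genes) and leaving out each library.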

Additional observations from a re-analysis of the deposited data

Results flagged for a closer look

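Spred2 in KO-KO replicate 4 measured 9.89, while the other 4 KO-KO libraries lay between 10.03 and 10.06. The gap to the nearest library was 0.78 of the range of the group (n = 5), past the critical value of Dixon's ratio for a group of that size. This was the only one of 36 groups of member and genotype to be past it, and chance alone would mark about 1 in 20.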

How the results depend on the processing

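Depth is unknown, so it sets no stated limit; fold sizes hold for the deposited scale after day removal, and clone, which cannot be told apart from Lin28a state, was examined only within clone pairs. Of 1719 values of members under alternatives, 1553 kept direction and side of the threshold, 57 lost a call, 54 gained one and 55 changed sign, none of the last while called in either fit. Causes of the changes were not tested.

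For Trim71 loss with Lin28a intact, 2 of 9 members were called with the replicate block on day. The count was 5 with no replicate block (5 also with all 19 libraries) and 4 with quantile normalisation. With a GC and length trend removed and the replicate block kept it was 4. It was 0 with only the genotypes compared, 0 in clones E3 and C1 and 1 to 5 when each library was left out. Clones 1 and 1-4, with 1 KO-WT library, are left out of these counts. Over all tested genes the main fit called 1674. No replicate block called 4219 (5159 with all 19 libraries), quantile normalisation 1870 and the GC and length trend 1123. Only the genotypes compared called 30 and clones E3 and C1 called 10. Without Lin28a the count of 3 became 0 in clones E3 and C1 and ran from 1 to 3 over left-out libraries. All tested genes called went from 1256 to 153 in those clones. For Lin28a loss with Trim71 intact the count of 5 became 8 with only the genotypes compared and 3 in clones E3 and C1. All tested genes called went from 6351 to 6809 and 2323. In clones E3 and C1 the member count became 5 (from 8) without Trim71 and 4 (from 7) for loss of both. There all tested genes called went from 6412 to 3595 and from 6834 to 2668. No replicate block moved no other count of called members by over 1.5 times. The interaction called 0 of 9 throughout.

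Among uncalled values that changed sign, on Trim71 loss with Lin28a intact, clones E3 and C1 gave -0.21 for Dusp4 and -0.072 for Spred1, the GC and length trend gave -0.050 for Dusp4, and clones 1 and 1-4 gave -0.028 for Etv5. On Trim71 loss without Lin28a, clones E3 and C1 gave -0.0059 for Spred1 and -0.024 for Spry2, and clones 1 and 1-4 gave 0.14 for Dusp4 and 0.029 for Spred2. For loss of both, clones 1 and 1-4 gave 0.083 for Dusp6, and with equal medians Spry4 was at 0.0059 on Lin28a loss with Trim71 intact. The interaction of Dusp6 was -0.0050 with equal 75th percentiles, -0.017 with quantile normalisation, -0.34 in clones 1 and 1-4 and -0.013 on the 3 days with all 4 genotypes. That of Etv4 was 0.0024 with the GC and length trend removed, that of Spred1 -0.067 in clones 1 and 1-4 and -0.17 with the GC and length trend removed, and that of Spry4 0.055 in clones E3 and C1 and 0.045 on the 3 days with all 4 genotypes.

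Over left-out libraries, values that changed sign ranged on Trim71 loss with Lin28a intact from -0.11 to 0.094 (Dusp4), -0.011 to 0.079 (Etv5), -0.0078 to 0.15 (Spred1) and -0.012 to 0.095 (Spred2). Without Lin28a they ranged from -0.048 to 0.011 (Spred2) and -0.0049 to 0.065 (Spry2). Spry4 on Lin28a loss ranged from -0.11 to 0.045 with Trim71 intact and from -0.16 to 0.032 without it. Interactions ranged from -0.092 to 0.16 (Dusp6), -0.011 to 0.079 (Etv5), -0.042 to 0.11 (Spred1) and -0.097 to 0.068 (Spry4).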
